A study of Rattus norvegicus with 6 samples.

Results

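The globin and erythroid genes of the rat pulmonary vein (PV) were examined as a set of 7 genes, Hba-a1, Hbb, Hbb-bs, Ahsp, Alas2, Slc4a1 and Epb42, chosen by their symbols. All 7 symbols were found among the 17833 genes of the deposited table, and all 7 were among the 15150 genes tested. The table held bulk RNA-seq values of the PV of the right upper lobe from 6 wild-type rats of the SD (Sprague-Dawley) strain at postnatal day 21. In 3 rats both sides had been narrowed by bilateral pulmonary vein banding (BPVB) at postnatal day 1, and 3 sham rats had the same operation without the constriction. Each library came from 1 rat, and the rats for sequencing were drawn at random from their group. Values are FPKM, fragments scaled by gene length and library total, so that levels of different genes can be compared per length.

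Hemoglobin carries oxygen in red cells and is built from alpha-globin and beta-globin chains that each hold a heme. Red cells lose their nucleus before they enter the blood, and young red cells, the reticulocytes, still carry globin mRNA. A vein with blood in its lumen can therefore contribute globin transcripts to a tissue sample. Alas2 starts heme synthesis in erythroid cells, Ahsp is a chaperone that stabilises free alpha globin, Slc4a1 is the band 3 anion exchanger of the red cell membrane, and Epb42 is the membrane protein 4.2 that binds to it.

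The libraries held between 23439506 and 29725808 fragments, with all 3 BPVB libraries deeper than the sham libraries. Markers of smooth muscle, atrial myocardium and endothelium were present in every library, with summed levels of 4583 to 5012, 13493 to 18442 and 1050 to 1156 FPKM. Lung epithelium markers added up to 653 to 704 FPKM in the BPVB group and 133 to 140 FPKM in the sham group. Of these 8 markers 7 were higher and 1, Hopx, was lower in the BPVB group. Their part in the results on red cell genes was not tested.

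Hba-a1, an adult alpha-globin gene (NCBI Gene 25632, chr10:15841724-15842580 in GRCr8), had the highest FPKM of all genes in each of the 6 libraries. Its level was 8187, 6976 and 8990 FPKM in the BPVB libraries, against 10623, 8721 and 9417 FPKM in the sham libraries, numbered 1 to 3 in that order. The groups overlapped, since BPVB 3 exceeded sham 2. The means were 8051 ± 1014 and 9587 ± 962 FPKM (SD, n = 3 each). On the log2(FPKM + 0.5) scale the difference was -0.25 (SE 0.093, 95% interval -0.47 to -0.04), which missed the threshold of 0.05 (adjusted p = 0.0672, limma with Benjamini-Hochberg adjustment over all tested genes). The adjusted p was 0.0264 without BPVB 3 and 0.0464 without sham 2.

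Hbb, an adult beta-globin gene (NCBI Gene 24440, chr1:167662310-167663721 in GRCr8), ranked 9 by mean FPKM. It was measured at 2733, 2695 and 3111 FPKM in the BPVB libraries and at 3297, 2961 and 3013 FPKM in the sham libraries. BPVB 3 lay above sham 2 and sham 3, and the other BPVB libraries lay below all sham libraries. The means of 2846 ± 230 and 3090 ± 181 FPKM (SD, n = 3 each) differed by -0.12 on the log2 scale (SE 0.058, 95% interval -0.25 to 0.01, limma adjusted p = 0.150). Without BPVB 3 the difference was -0.19 with an adjusted p of 0.0178.

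Hbb-bs, another beta-globin gene at the same locus (NCBI Gene 689064, chr1:167630245-167631630 in GRCr8), was the member whose replicates stood farthest apart on the FPKM ratio scale. It was measured at 406, 110 and 431 FPKM in the BPVB libraries and at 459, 464 and 487 FPKM in the sham libraries. All BPVB libraries lay below all sham libraries, but BPVB 2 was far below the others. The highest and lowest BPVB libraries differed 3.91-fold, against 1.06-fold in the sham group, and the coefficient of variation was 56.5% against 3.23%. The number of fragments behind the value of BPVB 2 was 1762, against 6639 and 7857 in the other BPVB libraries, so that counting error is small beside this gap.

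The group means of Hbb-bs were 316 ± 178 and 470 ± 15.2 FPKM (SD, n = 3 each). The log2 difference was -0.81 with a wide interval of -1.80 to 0.18 and did not pass the test (SE 0.43, limma adjusted p = 0.195). Without BPVB 2 the difference was smaller, -0.17, and passed with an adjusted p of 0.0142. One library therefore set most of the difference between the group means of this gene.

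**Figure D1:**
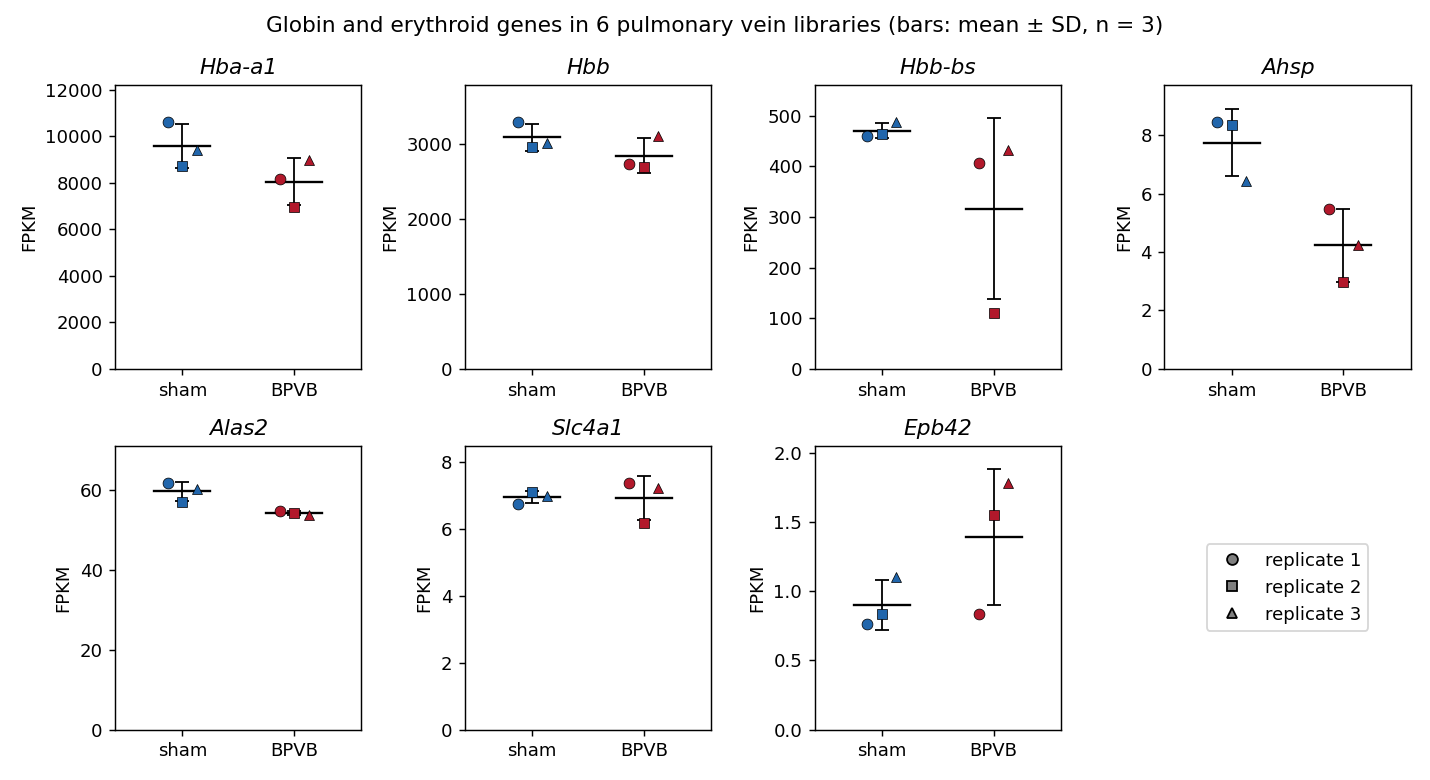
FPKM of the 7 genes in the 3 sham (blue) and 3 BPVB (red) libraries, with 1 linear axis from 0 per gene, symbols for the replicate number, and bars for mean ± SD (n = 3). BPVB 2 stands apart for Hbb-bs at 110 FPKM, and the groups do not overlap for Hbb-bs, Ahsp and Alas2, nor for 45.6% of all tested genes.

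The other globin genes did not share the size of this drop in BPVB 2, although Hba-a1, Hba-a2 and Hbb were also lowest there. Hbb-bs in BPVB 2 was 0.263 times the mean of the other BPVB libraries. The same ratio was 0.922 for Hbb, 1.05 for Hbb-b1 and 0.957 for LOC120093065, which are further adult beta-globin genes in the table. LOC100134871, also a beta-globin gene, had its highest value of the 6 libraries in BPVB 2. For the alpha-globin genes it was 0.812 (Hba-a1), 0.817 (Hba-a2) and 1.17 (Hba-a3). It was 0.998 for Alas2, 0.845 for Slc4a1, 0.613 for Ahsp and 1.18 for Epb42. BPVB 2 was the lowest of the 6 libraries for 5 of the 7 genes, with Alas2 and Epb42 as the exceptions.

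A gap of this size was rare in the table. Among the 5947 genes with a mean of at least 10 FPKM, 5 values in 4 genes lay over 2-fold from the nearest replicate of their group. Hbb-bs in BPVB 2 ranked 2 of these, at 3.68-fold, and was the only one of the 5 in BPVB 2.

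Adult globin genes of 1 kind are close copies of each other, and reads shared by them could have been divided among the genes in different ways. The division of fragments between Hbb-bs, Hbb-b1, LOC100134871 and LOC120093065, and between Hba-a1 and Hba-a2, is therefore uncertain. The animals may also have carried different haplotypes of the beta-globin genes, which are not given in the sources used here and were not tested. RefSeq names LOC100134871 Hbbl1 and LOC120093065 Hbb-b2, and places both between Hbb-b1 and Hbb. The stretches of 120 bases before the start site are printed to show how alike the genes are upstream of it. Capitals mark 3 motifs known from globin promoters, the CACCC box, the box spelled CCAAT and a TATA-like box, searched as ATAAA. All 5 stretches are on the minus strand of GRCr8, written 5′ to 3′ in the direction of transcription and taken from a table of RefSeq promoters that was matched for 5 of the 7 genes. Ahsp and Slc4a1 are the other two. The stretches lie at chr1:167631631-167631750 for Hbb-bs, chr1:167643521-167643640 for Hbb-b1, chr1:167663722-167663841 for Hbb, chr10:15842581-15842700 for Hba-a1 and chr10:15829139-15829258 for Hba-a2. For Hbb-b1 the start in the promoter table lies inside the annotated gene, so that 57 of its 120 bases are within the gene as annotated.
Hbb-bs: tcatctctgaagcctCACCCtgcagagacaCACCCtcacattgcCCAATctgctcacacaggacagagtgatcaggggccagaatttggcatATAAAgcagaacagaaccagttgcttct
Hbb-b1: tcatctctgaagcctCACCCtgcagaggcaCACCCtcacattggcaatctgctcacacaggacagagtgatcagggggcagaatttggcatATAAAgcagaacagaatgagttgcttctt
Hbb: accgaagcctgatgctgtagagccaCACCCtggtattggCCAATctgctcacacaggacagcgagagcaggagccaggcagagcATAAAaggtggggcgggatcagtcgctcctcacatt
Hba-a1: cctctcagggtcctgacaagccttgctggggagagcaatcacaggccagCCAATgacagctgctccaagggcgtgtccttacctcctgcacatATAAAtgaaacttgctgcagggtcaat
Hba-a2: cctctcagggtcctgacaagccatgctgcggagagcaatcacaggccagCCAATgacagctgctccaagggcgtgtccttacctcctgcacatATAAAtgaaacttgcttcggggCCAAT

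Over 250 bases before the start, Hbb-bs and Hbb-b1 were identical at 235 of 251 aligned columns (93.6%). Hbb-bs was 93.3% identical to LOC100134871, 94.8% to LOC120093065 and 61.3% to Hbb. Hba-a1 and Hba-a2 were 96.4% identical. ATAAA began 28 bases before the start in Hbb-bs, 29 in Hbb-b1, 36 in Hbb and 27 in Hba-a1. In Hbb-bs CCAAT began 76 bases before the start, whereas Hbb-b1 held it only on the other strand. Of 33469 RefSeq promoters, 49.2% held CACCC, 34.0% CCAAT and 39.3% ATAAA on either strand within the same 250 bases, so the letters alone are common. The GATA motif was searched as AGATAA and TGATAA, held by 10.3% and 7.97% of promoters. TGATAA was found 165 bases before the start in Hba-a1 and Hba-a2, and AGATAA 136 bases before the start in Alas2. The Epb42 promoter held none of the 5 motifs.

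Hbb-bs and Hbb-b1, alike upstream of the start, gave different patterns. Their transcript sequences were not compared. Hbb-b1 was measured at 840, 929 and 930 FPKM in the BPVB libraries and at 1044, 1110 and 1008 FPKM in the sham libraries. BPVB 2 was level with BPVB 3, and the groups did not overlap. The difference was -0.23 on the log2 scale (SE 0.047, limma adjusted p = 0.00557). The Hbb-bs to Hbb-b1 ratio of FPKM was 0.483, 0.119 and 0.464 in the BPVB libraries, against 0.439, 0.418 and 0.483 in the sham libraries. The ratios of BPVB 1 and BPVB 3 thus lay within the sham range, and that of BPVB 2 below it (log2 difference -0.58, exact permutation p = 0.8, two-sided, smallest possible 0.1). Without BPVB 2 the log2 difference of this ratio was 0.085.

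The other adult alpha-globin genes were lower on average in the BPVB group. Hba-a2 was measured at 3295, 2972 and 3983 FPKM against 4956, 3469 and 4925 FPKM, groups that overlapped, with a log2 difference of -0.37 that did not pass the test (SE 0.14, limma adjusted p = 0.0803; 0.0415 without BPVB 3 and 0.00671 without sham 2). Hba-a3 was measured at 102, 122 and 108 FPKM against 149, 142 and 153 FPKM, without overlap. It was lower by a log2 difference of -0.42 (SE 0.062, limma adjusted p = 0.000958).

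The beta-globin gene LOC100134871 had a positive difference. Its values were 107, 117 and 88.3 FPKM in the BPVB libraries, against 86.3, 97.6 and 93.2 FPKM in the sham libraries. BPVB 1 and BPVB 2 lay above the sham libraries and BPVB 3 within their range. The log2 difference of 0.17 did not pass (limma adjusted p = 0.208), but gave 0.28 with an adjusted p of 0.0120 without BPVB 3. LOC120093065 was at 64.7, 66.9 and 75.0 FPKM against 67.2, 74.0 and 76.0 FPKM, with a log2 difference of -0.07 (limma adjusted p = 0.436).

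Globins of other stages or tissues were looked at as well. Cygb was at 122, 129 and 122 FPKM in the BPVB libraries, against 116, 119 and 120 FPKM in the sham libraries, without overlap. Its log2 difference of 0.07 did not pass (limma adjusted p = 0.132). The embryonic beta-like gene Hbe1 had 0 fragments in the BPVB libraries, against 6, 1 and 1 in the sham libraries, where 1 library held most of them. It lay under the filter on low values and was not tested, and a count of 0 allows up to 3 fragments in a library. Hbq1b, a theta-globin gene, was at 1.64 ± 0.237 FPKM in the BPVB group and 2.01 ± 0.514 FPKM in the sham group (SD, n = 3 each, log2 difference -0.21, limma adjusted p = 0.380). Mb, the myoglobin of heart muscle, fell from 2497 ± 16.3 to 2002 ± 47.6 FPKM (SD, n = 3 each, log2 difference -0.32, limma adjusted p = 1.01e-05), beside atrial myocardium markers of which 5 of 6 were lower and 1 was higher.

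**Figure D2:**
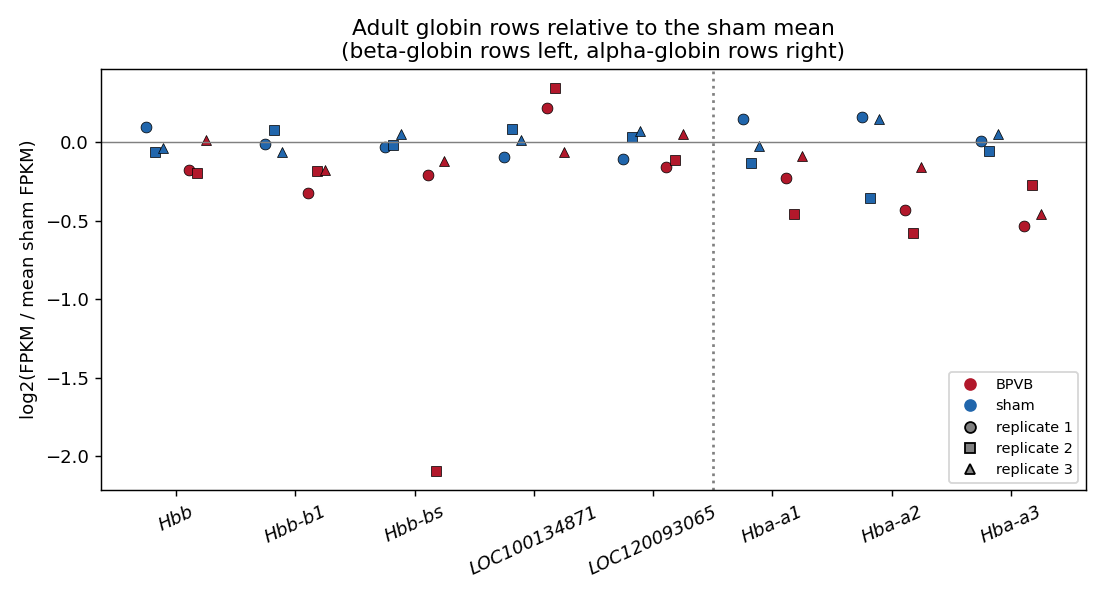
Level of the 8 adult globin genes in each library as log2(FPKM / mean sham FPKM), with BPVB in red, sham in blue, symbols for the replicate number, and a dotted line between beta-globin (left) and alpha-globin genes (right). Hbb-bs in BPVB 2, at 0.234 times the sham mean, is the only value over 1 log2 unit from 0.

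The 8 adult globin genes, 3 alpha and 5 beta, together took 0.908%, 0.811% and 1.02% of the fragments in the BPVB libraries, against 1.19%, 0.987% and 1.10% in the sham libraries. BPVB 2 was lowest and sham 1 highest, and BPVB 3 lay above sham 2. Their summed level was 15813 ± 1864 FPKM in the BPVB group and 18964 ± 1830 FPKM in the sham group (SD, n = 3 each), a log2 difference of -0.26 (exact permutation p = 0.2, two-sided). With 3 libraries against 3 this test cannot go below 0.1. In whole tissue, fewer red cells and less RNA per red cell cannot be told apart.

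Summed alpha globin was 11585, 10070 and 13080 FPKM in the BPVB libraries, against 15728, 12332 and 14496 FPKM in the sham libraries, which overlapped (exact permutation p = 0.2). Summed beta globin was 4152, 3918 and 4635 FPKM against 4953, 4706 and 4678 FPKM, which did not (log2 difference -0.18, exact permutation p = 0.1, the smallest possible). Without Hbb-bs the beta-globin sums overlapped, at 3746 to 4204 FPKM and 4190 to 4494 FPKM (exact permutation p = 0.2).

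The alpha to beta ratio, which does not depend on library scaling, was 2.79, 2.57 and 2.82 in the BPVB libraries, against 3.18, 2.62 and 3.10 in the sham libraries. Both libraries numbered 2 had the lowest ratio of their group, and the groups overlapped. The means were 2.73 ± 0.137 and 2.96 ± 0.301 (SD, n = 3 each, log2 difference -0.12, exact permutation p = 0.3). Hbb-bs made up 9.78%, 2.81% and 9.30% of summed beta-globin FPKM in the BPVB libraries, against 9.26%, 9.86% and 10.4% in the sham libraries. Outside BPVB 2 its share thus stayed between 9.26% and 10.4%. The log2 ratio of Hbb-bs to Hbb differed by -0.69 between the groups (exact permutation p = 0.2), and by -0.09 without BPVB 2.

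**Figure D3:**
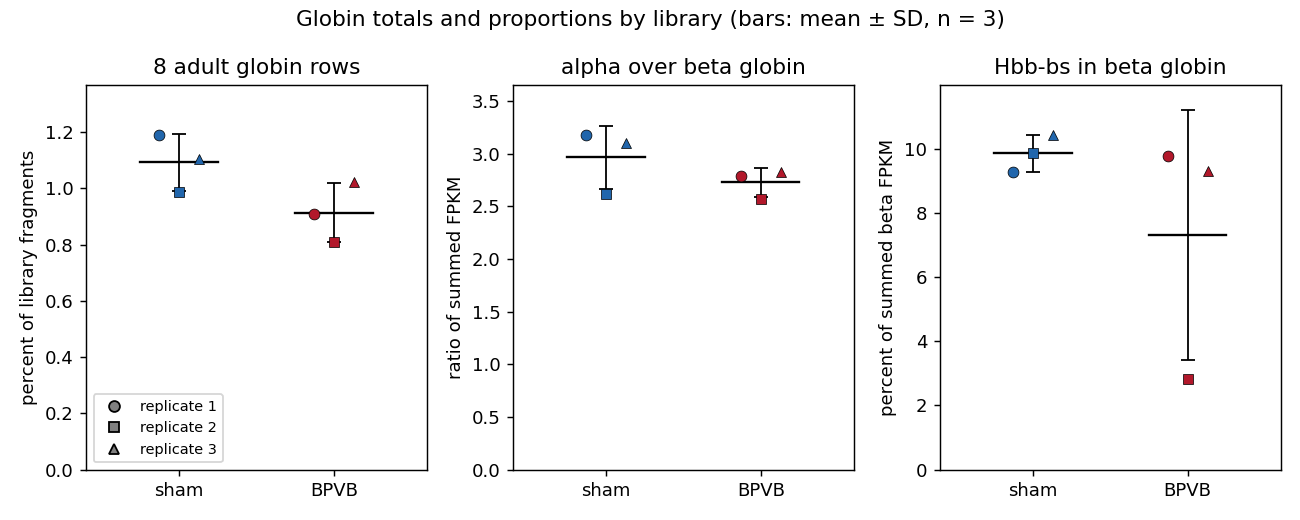
Share of fragments taken by 8 adult globin genes (percent, left), ratio of summed alpha to summed beta globin FPKM (middle) and share of Hbb-bs in summed beta-globin FPKM (percent, right) for each library, with mean ± SD (n = 3) and axes from 0. The groups overlap in all panels, and BPVB 2 is low at 2.81% in the right panel.

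Ahsp, the alpha-globin chaperone (NCBI Gene 293522, chr1:192310306-192315943 in GRCr8), had the smallest adjusted p of the 7 genes. It was measured at 5.47, 2.98 and 4.25 FPKM in the BPVB libraries and at 8.45, 8.35 and 6.43 FPKM in the sham libraries. Every BPVB library lay below every sham library, with BPVB 2 the lowest, on 75 to 141 fragments in the BPVB group and 148 to 194 in the sham group. The mean fell from 7.74 ± 1.14 to 4.23 ± 1.25 FPKM (SD, n = 3 each), a log2 difference of -0.83 (SE 0.19, 95% interval -1.25 to -0.40, limma adjusted p = 0.00965), or 0.564-fold on that scale. Per 1000 FPKM of alpha globin, Ahsp was 0.472, 0.296 and 0.325 FPKM in the BPVB libraries, against 0.537, 0.677 and 0.444 FPKM in the sham libraries. These ratios overlapped, since BPVB 1 exceeded sham 3 (exact permutation p = 0.2).

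Alas2, the erythroid 5-aminolevulinate synthase (NCBI Gene 25748, chrX:22890650-22914046 in GRCr8), fell by a small amount. It was measured at 54.8, 54.2 and 53.8 FPKM in the BPVB libraries and at 61.9, 57.0 and 60.2 FPKM in the sham libraries. The groups did not overlap, and the BPVB libraries agreed more closely with each other than the sham libraries did. The means were 54.3 ± 0.494 and 59.7 ± 2.45 FPKM (SD, n = 3 each), a log2 difference of -0.14 (SE 0.039, 95% interval -0.22 to -0.05, limma adjusted p = 0.0284). The call was lost when BPVB 1, BPVB 2, BPVB 3, sham 1 or sham 3 was left out (adjusted p of 0.0520, 0.0680, 0.0772, 0.0972 and 0.0826) and on the TPM scale (0.0763). Per 1000 FPKM of adult globin, Alas2 was 3.48, 3.88 and 3.04 FPKM in the BPVB libraries, against 2.99, 3.35 and 3.14 FPKM in the sham libraries, which overlapped (exact permutation p = 0.3).

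Slc4a1, the anion exchanger (NCBI Gene 24779, chr10:87807010-87823274 in GRCr8), was measured at 7.38, 6.18 and 7.24 FPKM in the BPVB libraries and at 6.75, 7.10 and 6.99 FPKM in the sham libraries. The BPVB libraries lay on both sides of the sham libraries. The means were 6.93 ± 0.657 and 6.95 ± 0.180 FPKM (SD, n = 3 each). The log2 difference was -0.0065 with a 95% interval of -0.20 to 0.19 (limma adjusted p = 0.966), and its sign turned on the TPM scale and without BPVB 2 or sham 2, at 0.02, 0.07 and 0.0086.

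Epb42, protein 4.2 (NCBI Gene 362202, chr3:128433460-128451683 in GRCr8), was the only one of the 7 genes with a positive difference. It was measured at 0.838, 1.55 and 1.78 FPKM in the BPVB libraries and at 0.759, 0.837 and 1.10 FPKM in the sham libraries. BPVB 2 and BPVB 3 lay above all sham libraries, whereas BPVB 1 lay within their range. The values rested on 57, 103 and 135 fragments against 46, 50 and 67. The log2 difference of 0.40 did not pass the test (SE 0.21, 95% interval -0.07 to 0.88, limma adjusted p = 0.176). Without BPVB 1 it was 0.64 with an adjusted p of 0.0225.

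Of the 7 genes, 2 were lower in the BPVB group (Ahsp and Alas2), 0 were higher and 5 did not pass, at an adjusted p under 0.05. Over all 15150 tested genes, 14.3% were lower, 17.2% were higher and 31.5% passed in either direction. The groups did not overlap for 3 of the 7 genes, against 45.6% of all tested genes, and 6 of the 7 had a negative difference, against 46% of all. The median log2 difference was -0.14 for the 7 genes and 0.02 for all tested genes. In the limma fit none of the 7 was a differentially expressed gene by the thresholds of the study, an adjusted p under 0.05 with an absolute log2 fold change above 1, which 3.27% of tested genes passed, 2.24% as higher and 1.03% as lower. The study applied these thresholds to DESeq2 results, and its own calls were not compared here. At an unadjusted p under 0.05 limma gave 3 lower (Ahsp, Alas2 and Hba-a1) and 0 higher, against 19.2% lower and 22.8% higher over all tested genes. Tested on the fragments recovered from the FPKM with limma-voom, 5 were lower (Ahsp, Alas2, Hba-a1, Hbb and Hbb-bs) and 0 were higher, against 16.8% of all genes lower and 19.9% higher in that fit. For Hbb-bs the limma-voom adjusted p was 0.00108, against 0.195 in the main limma fit, although BPVB 2 set most of its difference. That call therefore does not show a fall shared by the 3 BPVB rats.

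Of 58 tested genes in 4 further lists of red cell biology, 5 were higher, 17 were lower and 36 did not pass. The shares over all tested genes were 17.2% higher and 14.3% lower. Among 14 genes of heme synthesis and its mitochondrial transport, 6 were lower, 1 was higher and 7 did not pass, with a median log2 difference of -0.10. Urod, which makes coproporphyrinogen, was at 38.1, 36.8 and 38.0 FPKM in the BPVB libraries, against 48.7, 52.0 and 49.4 FPKM in the sham libraries (log2 difference -0.41, limma adjusted p = 9.32e-05). Alad, which acts earlier in the pathway, fell by a log2 difference of -0.36 (limma adjusted p = 0.0102). Fam210b, a mitochondrial protein linked to erythroid heme synthesis, rose by 0.50 on the log2 scale (limma adjusted p = 0.00229). Fech, the enzyme that inserts the iron, was at 21.8 FPKM in the sham and 20.5 FPKM in the BPVB group (limma adjusted p = 0.439). Without BPVB 1 or without sham 3 the count of lower genes was 3. Most enzymes of this pathway are made in all cells that build heme.

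Among 15 tested genes of the red cell membrane, 5 were lower, 3 were higher and 7 did not pass, with a median log2 difference of -0.21. This stands beside 14.3% lower and 17.2% higher over all tested genes. Aqp1, a water channel that endothelium also makes, had the largest fall of this list, from 646 ± 8.47 to 400.1 ± 11.1 FPKM (SD, n = 3 each, log2 difference -0.69, limma adjusted p = 3.53e-07). It fell beside endothelial markers of which 4 of 7 were lower, 1 was higher and 2 did not pass. Ank1, the ankyrin that ties band 3 to the spectrin skeleton and that muscle also makes, fell by 0.52 on the log2 scale (limma adjusted p = 3.2e-05).

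The genes Sptb, Epb41 and Gypc of the spectrin skeleton and membrane, each expressed in other tissues too, rose by 0.31, 0.22 and 0.22 on the log2 scale (limma adjusted p = 0.00649, 0.0129 and 0.00575). Kel, a blood group gene, fell by 0.64 on the log2 scale at levels of 0.465 and 0.999 FPKM (limma adjusted p = 0.00745).

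The 10 tested erythroid transcription factors gave 1 lower, 1 higher and 8 that did not pass, with a median log2 difference of 0.05. Levels differed widely within the list. Gata1, a lineage-defining factor, was at 0.423, 0.639 and 1.09 FPKM in the BPVB libraries and at 0.339, 0.734 and 0.655 FPKM in the sham libraries (limma adjusted p = 0.638). Klf1, which activates adult beta globin, was at 0.785 ± 0.182 and 1.11 ± 0.271 FPKM (SD, n = 3 each, limma adjusted p = 0.183). Tal1, which early blood and endothelial cells share, was at 5.44, 4.70 and 5.28 FPKM against 6.36, 6.59 and 5.72 FPKM, without overlap (log2 difference -0.25, limma adjusted p = 0.0631). It passed as lower under median-of-ratios scaling (adjusted p = 0.0429), quantile normalization (0.0346) and limma-voom (0.0101), which each gave 2 lower factors. Gata2, which endothelium also uses, fell by 0.36 on the log2 scale (limma adjusted p = 0.00311). Zfpm1, a partner of GATA factors, rose by 0.37 on the log2 scale (limma adjusted p = 0.0141), a call lost without BPVB 2 (0.0517).

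Among 19 genes of erythroid maturation and red cell enzymes, 5 were lower, 0 were higher and 14 did not pass, with a median log2 difference of -0.13. Over all tested genes 14.3% were lower at this threshold. At an unadjusted p under 0.05 limma gave 8 lower and 0 higher, beside 19.2% lower over all tested genes, and limma-voom on the recovered fragments, at an adjusted p under 0.05, gave 7 lower and 0 higher, beside 16.8% lower. Tfrc, the transferrin receptor that brings iron into dividing and hemoglobin-making cells, was at 5.54, 5.04 and 5.85 FPKM in the BPVB libraries and at 10.9, 12.3 and 11.6 FPKM in the sham libraries. It was the only differentially expressed gene of the 4 lists (log2 difference -1.02, SE 0.081, limma adjusted p = 2.44e-05). Hemgn, a nuclear protein of erythroid precursors, was at 1.55, 1.64 and 1.45 FPKM against 3.40, 2.40 and 3.34 FPKM (log2 difference -0.78, limma adjusted p = 0.00271). Car2, a carbonic anhydrase of red cells and other tissues, fell by 0.55 on the log2 scale (limma adjusted p = 0.000263).

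Genes that handle free hemoglobin, heme and iron formed a separate list. Of 16 tested, 8 were higher, 1 was lower and 7 did not pass, with a median log2 difference of 0.13. Over all tested genes 17.2% were higher and 14.3% were lower. Hmox1, the heme oxygenase that breaks heme down, was at 19.7, 18.8 and 15.9 FPKM in the BPVB libraries and at 4.08, 4.26 and 3.80 FPKM in the sham libraries. The lowest BPVB library was far above the highest sham library, and the gene was 4.09-fold higher (log2 difference 2.03, SE 0.091, limma adjusted p = 7.67e-07). Slc11a1, an iron exporter of phagosomes, was at 1.19 to 1.31 FPKM in the BPVB group and 0.191 to 0.478 FPKM in the sham group (log2 difference 1.06, limma adjusted p = 0.000938).

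Ftl1, the ferritin light chain that stores iron, rose by 0.30 on the log2 scale (limma adjusted p = 0.000614). The ferritin heavy chain Fth1, at far higher levels, did not rise. It was at 2437, 2574 and 2487 FPKM against 2576, 2576 and 2610 FPKM (log2 difference -0.05, limma adjusted p = 0.137). Hp, which binds free hemoglobin, was at 6.64, 6.09 and 5.34 FPKM against 4.99, 4.17 and 3.65 FPKM, without overlap (log2 difference 0.46, limma adjusted p = 0.0215). Its call was lost without BPVB 1, BPVB 2, sham 2 or sham 3, at adjusted p of 0.0728, 0.0587, 0.0586 and 0.0678. Cd163, the macrophage receptor for hemoglobin bound to haptoglobin, was at 2.41, 2.50 and 2.83 FPKM against 3.28, 2.67 and 2.29 FPKM, which overlapped (limma adjusted p = 0.741). Timd4, a marker of resident macrophages, fell by 0.68 on the log2 scale (limma adjusted p = 0.00431). Further macrophage markers, named after their values were seen, were higher. Lyz2 was at 574 to 604 FPKM in the BPVB group and 159 to 167 FPKM in the sham group (log2 difference 1.85, limma adjusted p = 1.44e-09). Cd68, Aif1, Adgre1, Csf1r, Mrc1 and Cd14 rose by 0.58 to 1.09 on the log2 scale (limma adjusted p of 0.000116 to 0.00378). Of 10 such markers looked up, Cd163 and Timd4 included, 9 were tested, of which 7 were higher and 1 was lower. The part of macrophages in the counts of this list was not tested. The count of higher genes was 5 without BPVB 2. The count of lower genes was 2 without BPVB 2, without sham 3 and with quantile normalization, and limma-voom gave 6 higher and 2 lower.

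**Figure D4:**
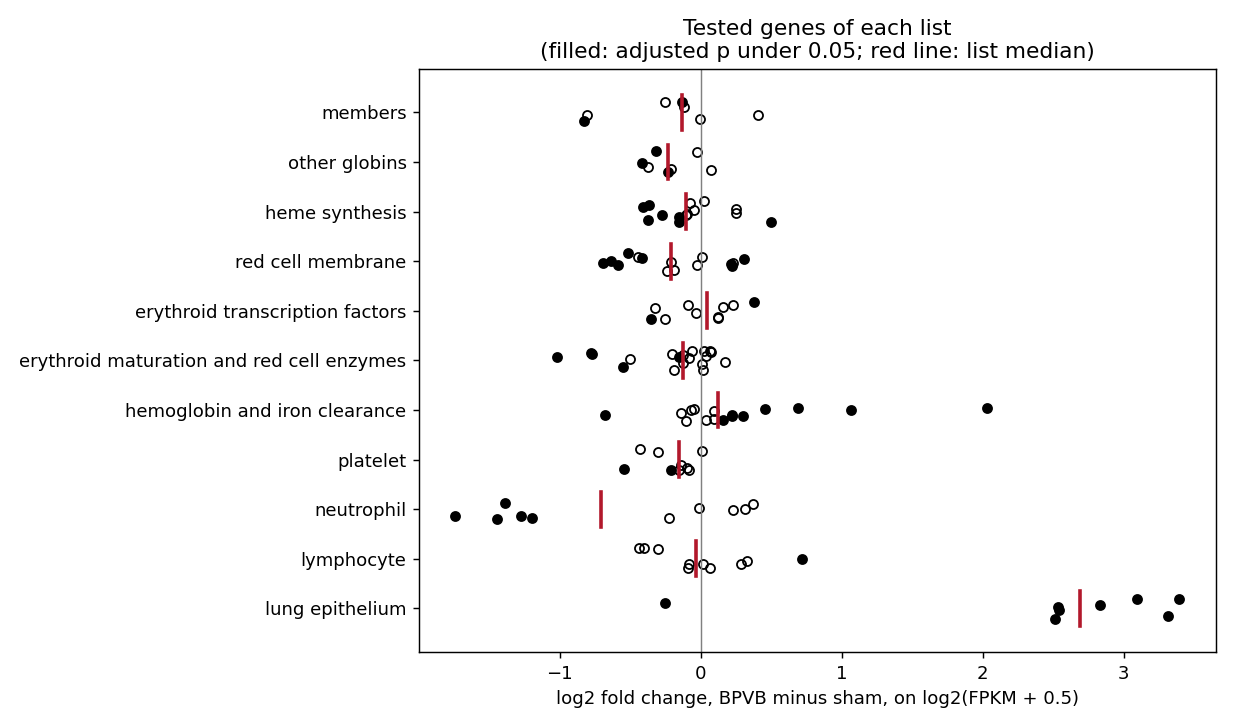
Log2 fold change (BPVB minus sham, on log2(FPKM + 0.5)) of every tested gene of the 7 members and of 10 of the lists, with filled points for an adjusted p under 0.05, open points for the others and a red line at each list's median. The members lie between -0.83 and 0.40, and the lung epithelium genes other than Hopx lie above 2.5.

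Other blood cells were examined because they share the lumen with red cells. Of 9 platelet genes 2 were lower and 7 did not pass, beside 14.3% lower over all tested genes. The summed level of the list was 231 to 248 FPKM in the BPVB group and 237 to 254 FPKM in the sham group. Pf4 alone made up at least 85.6% of that sum in every library, and without it the level was 25.5 to 28.8 FPKM against 32.8 to 34.2 FPKM, which did not overlap. The count of lower platelet genes was 1 without BPVB 2, without sham 1 or without sham 3, where Clec1b, a platelet receptor, lost its call (limma adjusted p = 0.111, 0.0673 and 0.128). Clec1b also lost it without BPVB 3 (limma adjusted p = 0.109), with no filter on low values (0.0508), on the TPM scale with or without the globin rows in the sum (0.0734 and 0.0646), with a replicate block (0.0609) and with limma-voom (0.196). Pf4, the main platelet chemokine, was at 219, 206 and 206 FPKM against 204, 221 and 203 FPKM (limma adjusted p = 0.915). Itga2b, the platelet fibrinogen receptor subunit, fell by 0.55 on the log2 scale (limma adjusted p = 0.000971). Of 10 lymphocyte genes 1, Cd4, which macrophages also carry in the rat, was higher, and 9 did not pass.

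Of 10 tested neutrophil genes 5 were lower and 5 did not pass, beside 14.3% lower over all tested genes. The summed level of the list was 30.3 to 34.8 FPKM in the BPVB group and 45.4 to 51.6 FPKM in the sham group. Lcn2, an iron-scavenging protein that other cells also make, held 48.9% to 75.9% of the sum at 23.0 to 25.8 FPKM against 22.2 to 25.5 FPKM (log2 difference -0.01, limma adjusted p = 0.930). Without Lcn2 the sum was 7.28 to 11.1 FPKM in the BPVB group and 23.2 to 26.2 FPKM in the sham group. S100a8, an abundant calcium-binding protein of neutrophils, was at 6.68, 3.42 and 2.86 FPKM against 10.9, 13.8 and 11.2 FPKM (log2 difference -1.45, limma adjusted p = 0.00215). Ngp, a neutrophil granule protein, was at 0.166, 0.679 and 0.387 FPKM against 1.90, 3.21 and 2.42 FPKM (limma adjusted p = 0.000526). Csf3r, Mmp9 and Mpo had log2 differences of 0.37, 0.32 and 0.23 and did not pass (limma adjusted p = 0.127, 0.162 and 0.348), with no overlap between the groups for Mmp9. The defining markers Elane and Ltf had at most 1 fragment in any library. The part of these cells in the results on red cell genes was not tested.

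The genes whose pattern over the 6 libraries was most like the mean log2 level of the 7 members were found among 12150 genes with a mean of at least 1 FPKM. Pearson's r was above 0.9 for 113 of them. The 10 highest were Trak1 (0.993), Ruvbl2 (0.992), Slc30a9 (0.985), Paqr7 (0.979), Ptcd2 (0.978), Nudt12 (0.977), Spsb4 (0.975), Dnaja3 (0.974), LOC108348125 (0.972) and Mettl14 (0.972). All 10 had their lowest value in BPVB 2, as the mean of the members did. With 6 points, of which BPVB 2 lay apart for Hbb-bs, these values describe the libraries only.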

How the data were processed

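The authors deposited FPKM for 17833 genes in 6 libraries, 1 per rat. The paper's methods name HISAT and HTSeq-count, whereas the submitters' processing notes name HISAT2 2.0.5, StringTie 1.3.3b and featureCounts 1.5.0-p3, and the kit also differs between the methods (VAHTS) and the labels (NEBNext Ultra). The genome build, the annotation and the strand setting are not given in the sources used here. The methods describe rinsing blood away with PBS for the veins taken for histology, and name no such step in the section on RNA-seq. Groups and replicate numbers came from the sample titles. All value columns were used, leaving 0 unused.

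Genes averaging at least 0.1 FPKM over the libraries were tested with limma 3.58.1 in R 4.3.3 (lmFit, eBayes with a trend) on log2(FPKM + 0.5), two-sided, with Benjamini-Hochberg adjustment over all 15150 genes. Fold changes on this scale understate changes of low genes. Sums and ratios per library were compared by exact permutation tests on log2 values. Fragments were recovered from whole-number ratios of the FPKM of a gene between libraries, which were found for 100% of genes. Of 13475 genes with at least 50 fragments, 99.2% gave a whole gene length within 0.01. Whether fragments are independent molecules is unknown, and limits from counts cover counting error only. The test and the recovery were checked on simulated data with known answers. Replicates differed by more than sampling noise, so none was counted as a duplicate. Limma p-values rest on the spread between rats of 1 group, with each gene's variance drawn toward values typical of all genes. Limma-voom also weights values by their fragment counts.

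The 7 members and the 13 gene lists were chosen with earlier results of these data known. Named genes were all members, the members of each list with an adjusted p under 0.05 (at most 4 per direction, by size of the log2 fold change), the genes that did not pass in the globin, heme, membrane and transcription factor lists, and the 10 genes most alike in pattern. Some genes that this rule would name are not reported here. Ftl1, Fth1, Cd163, Pf4, Elane and Ltf and the genes with 1 library apart were named after their values were seen. Promoter sequences came from RefSeq tables of GRCr8, aligned with Biopython 1.88. The other steps used Python 3.11.15 with pandas 2.3.3, numpy 2.4.6, matplotlib 3.10.9 and scipy 1.17.1. The alternatives were 2 pseudocounts, 2 filters, 4 scalings, robust eBayes, limma-voom on the recovered fragments, the replicate number as a block and leaving out each library.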

Additional observations from a re-analysis of the deposited data

How the results depend on the processing

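The fall of Ahsp passed under each of the 17 alternatives (limma adjusted p of 0.00215 to 0.0373), with log2 differences of -1.01 to -0.62. Alas2 lost its call on the TPM scale (-0.10), on TPM without globin genes in the total (-0.11) and without any library but sham 2, with differences of -0.17 to -0.11 when 1 library was left out. Calls gained were those of Hba-a1 under median-of-ratios scaling (-0.28, adjusted p = 0.0492) and, with limma-voom, of Hba-a1 (-0.24), Hbb (-0.11) and Hbb-bs (-0.78). Quantile normalization set Hba-a1 to a difference of 0 by construction, since it ranked 1 in every library. With 1 library left out, Hba-a1 ranged from -0.34 to -0.16, Hbb from -0.19 to -0.073, Hbb-bs from -1.15 to -0.17, Epb42 from 0.25 to 0.64 and Slc4a1 from -0.051 to 0.069. BPVB 2 decided Hbb-bs, BPVB 3 decided Hbb, BPVB 3 and sham 2 decided Hba-a1, and BPVB 1 decided Epb42. Slc4a1 turned positive on TPM (0.023) and on TPM without globin genes (0.015). Signs of genes that did not pass also turned for Cpox (-0.11 to 0.046 with 1 library left out, positive without sham 3), Ppox (-0.015 under quantile normalization, -0.075 to 0.11, negative without BPVB 1 or sham 1), Tmod1 (-0.014 with median of ratios, -0.0054 to 0.041, negative without BPVB 1 or sham 3), Gata1 (-0.050 to 0.34, negative without BPVB 3 or sham 1) and Gfi1b (-0.13 to 0.073, positive without BPVB 2 or sham 3). The cause of these changes was not tested. Differentially expressed genes numbered 496, and 325 with a pseudocount of 1, 901 with 0.1, 1057 with limma-voom and 4775 by adjusted p alone. The summed globin level and the ratios of alpha to beta globin and of Hbb-bs to Hbb kept their sign under all alternatives run on them, none of which could give a p under 0.1. The ratio of Hbb-bs to Hbb-b1 (log2 difference -0.58), recomputed after the data were seen, turned to 0.085 without BPVB 2 and ranged from -0.93 to 0.085 with 1 library left out. The ratio of Hbb-bs to Hbb is one of members already, so counting members only gave no other value. Scalings moved the median of all genes by less than 0.1 on the log2 scale.

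Same-numbered deviations correlated weakly, at 0.031, 0.025 and 0.019, all below 0.1. Differently numbered ones lay between -0.024 and -0.0015, so each library correlated best with its own number. Whether the numbers mark pairs of rats is not given in the sources used here, and the main fit did not pair them. With the replicate number as a block, Hba-a1 passed (-0.25, adjusted p = 0.0109), as did Hba-a2 (0.00401), and 497 genes were differentially expressed. Of the 7 members, Epb42, with 46 to 135 fragments, and Ahsp, with 75 to 194, had the fewest fragments behind their values.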

Other observations

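Besides Hbb-bs, 3 genes with a mean of at least 10 FPKM had a library over 2-fold away from the nearest replicate of its group. RT1-CE16, a class I gene of the rat major histocompatibility complex, was at 158.7, 155 and 156 FPKM in the BPVB libraries and at 0.304, 0.655 and 0.0758 FPKM in the sham libraries, so that the spread among sham libraries was one of very low values (limma log2 difference 7.60, adjusted p = 3.96e-08). Class I genes have many near-identical copies, and reads shared by them could have been divided among the genes. The litters and the class I haplotypes of the animals are not given in the sources used here, so a difference between the groups in either cannot be told apart from the banding. Ccdc152 was at 12.7, 13.5 and 4.92 FPKM in the BPVB libraries and 15.1, 13.7 and 14.4 FPKM in the sham libraries. Chmp4bl1 was at 41.0, 40.1 and 35.9 FPKM in the BPVB libraries and 32.2, 37.0 and 14.6 FPKM in the sham libraries. Neither differed between the groups past the threshold (limma adjusted p = 0.194 and 0.156).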
